A study of Mus musculus with 3 samples.

Results

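Fragments from the 3′ ends of nuclear tRNAs were followed in the small RNAs of mature sperm and of whole testis and uterus from adult mice of the outbred strain CD1. Sperm came from the cauda epididymis, where sperm are stored after they leave the testis, and had been kept in a lysis buffer against somatic cells. No group carried an engineered allele or a drug treatment as far as the labels say, and the number of animals behind a library was not given in the sources used here. With 1 library for each of the 3 sources, nothing here has been checked in a replicate, and groups were compared without a test.

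A read was taken as a 3′ tRNA fragment when it matched the end of a mature tRNA without a mismatch, in sense, and closed with the tail CCA or with its first bases, CC or C. Reads that began at base 1 to 3 of a tRNA were left out. The rule was met by 2005 distinct sequences among 4182219 in all, and these held 45584 of 55350573 reads. Sperm held 1880 of the sequences with 28800 reads, testis 183 with 1599 reads and uterus 376 with 15185 reads. No full set of mouse tRNA sequences was used here. The ends were read from the libraries themselves, through a list of 8-base keys that cover bases 66 to 73, and 68 ends of 39 families were accepted. Bases are counted back from the A of the tail, which is base 76 in the standard tRNA numbering. Between the anticodon arm and the T arm lies a variable loop. At and before it these numbers depart from the standard in tRNAs where this loop is shorter or longer. The ends of 15 tRNA genes that hold A at base 58 could be read in GRCm38, and 15 of them carried a key of the list.

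A tRNA folds into an acceptor stem, a D arm, an anticodon arm and a T arm, and the CCA tail, to which the amino acid is bound, is added by an enzyme after transcription because mammalian nuclear tRNA genes do not encode it. A CCA end thus marks a tRNA that has been processed. Short fragments that begin in the T loop are known from many mammalian cells as tRF-3, with a shorter and a longer form that differ by a few bases at the 5′ side. Longer fragments begin near the anticodon, where ribonucleases such as angiogenin can cut a tRNA.

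The leading fragments show both kinds. The fragment of tRNA-Val (anticodons AAC and CAC) was first in testis and uterus and the leading 22 nt form in all 3 libraries. The Ala and Trp fragments of 18 nt led that class, the first in testis and uterus and the second in sperm, and the Trp and Asp fragments of 36 and 37 nt led sperm. Capitals mark the tail.
Val-AAC/CAC, 22 nt: tcgaaaccgggcggaaacaCCA
Ala, 22 nt: tcgatccccggcatctccaCCA
Tyr-GTA, 22 nt: tcgattccggctcgaaggaCCA
Gly-GCC/CCC, 22 nt: tcgattcccggccaatgcaCCA
Gly-CCC, 22 nt: tcgattcccgggcggcgcaCCA
Ala, 18 nt: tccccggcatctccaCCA
Trp-CCA, 18 nt: atcacgtcggggtcaCCA
Trp-CCA, 36 nt: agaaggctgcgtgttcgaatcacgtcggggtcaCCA
Trp-CCA, second 36 nt form: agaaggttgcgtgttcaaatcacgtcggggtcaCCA
Asp-GTC, 37 nt: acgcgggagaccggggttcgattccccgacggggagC
The 22 nt forms begin at base 55, in the T loop, and the 18 nt forms at base 59, 4 bases further on. The 36 nt Trp forms begin at base 41 and the Asp form at base 38, on the 3′ side of the anticodon.

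The genes behind such a fragment are repeated in the genome. The RefSeq table of GRCm38.p6 holds 408 nuclear tRNA genes, 105 of the tRNA genes lie on chromosome 13, and several give the same 3′ end. The tRNA-Val gene n-TVcac9, at chr13:23446142-23446214 on the minus strand, lies in the promoter window of Gm46404, and the tRNA-Gly gene n-TGccc7, at chr17:25875088-25875158 on the plus strand, lies within an exon of Mettl26. The last 40 bases of both are shown, with the 19 bases that the 22 nt fragment takes from the gene in capitals; the tail is not encoded.
n-TVcac9: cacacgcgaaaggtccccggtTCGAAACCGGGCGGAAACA
n-TGccc7: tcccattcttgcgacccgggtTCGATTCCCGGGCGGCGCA

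Depth came to 15690722 reads in the sperm library, 23783785 in the testis library and 15876066 in the uterus library, with lengths of 18 to 44 nt. Intervals below are 95% intervals for counting error only, exact Clopper-Pearson for shares, exact Poisson for reads per 1000000 (RPM) and conditional exact binomial for ratios. They take each read as a separate count. Copies made by PCR are not separate molecules, so the intervals can be too narrow. Short reads, of 18 to 28 nt, were 18.7% of the sperm library, 20.2% of the testis library and 99.6% of the uterus library, so the libraries differ in the lengths that set the total. Reads of 29 nt or more of any origin numbered 12763924 in sperm, against 18970477 in testis and 68078 in uterus. Reads of 36 nt or more numbered 1354791 in sperm, against 30096 in testis and 215 in uterus. No uterus read was of 36, 37 or 39 nt, so a long fragment could hardly be seen in uterus. As a check of the labels, miR-449a-5p, a microRNA of male germ cells and ciliated cells, stood at 2.55 RPM in sperm, 37.6 RPM in testis and, in uterus, 2.27 RPM. A microRNA of mesenchymal cells, miR-199a-3p, stood at 24.3 RPM in sperm, 29.01 RPM in testis and, in uterus, 29079 RPM. The germ cell marker was thus highest in testis and the mesenchymal one in uterus. Neither marker was highest in sperm, so they do not check the label of that library.

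Sperm held the largest share of 3′ tRNA fragments. They made up 0.184% of its reads (0.181 to 0.186%), against 0.00672% in testis (0.0064 to 0.00706%) while uterus had 0.0956% (0.0941 to 0.0972%). In RPM the levels were 1835 in sperm, against 67.2 in testis and 956 in uterus. Relative to testis the level in sperm was 27.3 times as high (25.96 to 28.7), and relative to uterus 1.92 times (1.88 to 1.96), and the level in testis was 0.0703 times that in uterus (0.0667 to 0.074). In tissue libraries, fewer cells that make a fragment and less of it per cell cannot be told apart. Among reads of 18 to 28 nt the ratio of sperm to testis was 7.90 and that of testis to uterus 0.338, so the size of these ratios moves with the total they are read against. With full CCA tails alone, the ratio of sperm to testis was 15.9 and that of sperm to uterus 1.13.

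Single sequences can be read against the rest of the libraries. For each pair of libraries they were chosen by their reads in the library left out, with a minimum of 20, so that the choice does not fix the direction. Of sequences of any origin with that many reads in uterus, 52.3% stood higher in sperm than in testis, and of the 71 fragments among them 53 stood higher in sperm and 17 lower. Of sequences with that many reads in testis, 47.6% stood higher in sperm than in uterus, and of the 12 fragments among them 1 did. Of sequences with that many reads in sperm, 41.4% stood higher in testis than in uterus. Among the 252 fragments chosen in this way 13 stood higher in testis and 38 lower, and 201 were seen in neither tissue.

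The fragment reads of testis and uterus were largely of sequences that all libraries share. A set of 108 sequences occurred in every library, and it held 10.2% of the fragment reads of sperm, 91.1% of those of testis and 84.1% of those of uterus. A further 1577 sequences were seen in sperm and in neither tissue, with 77.7% of its fragment reads. No such overlap was counted over sequences of any origin, so these numbers are not known to be particular to the fragments. The 10 leading sequences took 25.3% of the fragment reads in sperm, against 66.8% in testis and 53.5% in uterus.

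Length set sperm apart from both tissues. Fragments of 22 nt were 8.30% of the fragment reads in sperm (7.99 to 8.63%), against 84.1% in testis (82.2 to 85.9%) while uterus had 72.5% (71.7 to 73.2%). Fragments over 22 nt were 87.8% in sperm (87.4 to 88.1%), against 6.32% in testis (5.17 to 7.62%) while uterus had 2.59% (2.35 to 2.86%). The 18 nt form was 1.33% in sperm (1.20 to 1.47%), 3.502% in testis (2.66 to 4.52%) and, in uterus, 14.2% (13.7 to 14.8%), so it was most frequent in uterus. These shares depend on exact matching, which drops 22 nt reads with another base at base 58 but no 18 nt read, because that form does not hold the base. With such reads counted, the 18 nt form was 0.510% in sperm, against 0.792% in testis and 3.996% in uterus, in the same order.

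**Figure D1:**
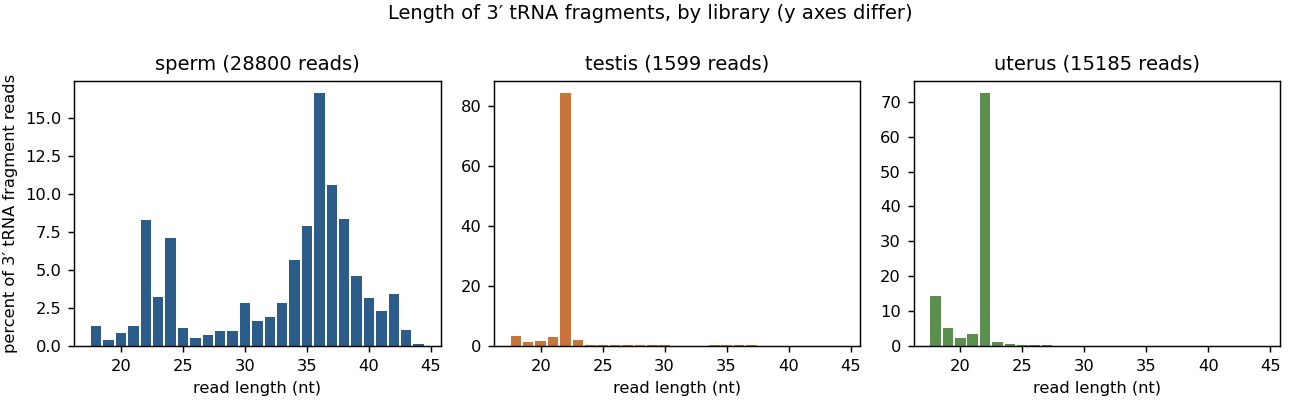
Share of 3′ tRNA fragment reads (percent, y axis, scaled for each library) by read length (nt, x axis) in sperm, testis and uterus. The highest bar of sperm is at 36 nt (16.6%), and those of testis (84.1%) and uterus (72.5%) are at 22 nt, with a second one of uterus at 18 nt (14.2%).

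Taken by class, the order of the libraries changed with length. At 22 nt the level was 152 RPM in sperm, against 56.6 RPM in testis and 693 RPM in uterus. For 22 nt fragments sperm stood at 2.69 of the testis level (2.52 to 2.88) and at 0.22 of the uterus level (0.21 to 0.23). At 18 nt the level was 24.5 RPM in sperm, against 2.35 RPM in testis and 136 RPM in uterus. Over 22 nt the level was 1611 RPM in sperm, against 4.25 RPM in testis and 24.8 RPM in uterus, and the ratios of sperm were 379 to testis (312 to 466) and 64.9 to uterus (58.8 to 71.9). Relative to all reads, uterus thus stood above sperm in both short classes. Relative to reads of 18 to 28 nt the direction turned at 22 nt, with 817 per 1000000 such reads in sperm, against 279 in testis and 696 in uterus. At 18 nt it was 131 in sperm, against 11.6 in testis and 137 in uterus on that scale. Fragments of 23 to 28 nt, a length that all libraries hold, stood at 1358 in sperm, against 13.1 in testis and 23.8 in uterus.

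Against all reads of the same length, 3′ tRNA fragments were 0.588% of 18 nt reads in sperm, against 1.96% in testis and 0.905% in uterus. They were 0.624% of 22 nt reads in sperm, against 1.14% in testis and 0.132% in uterus. Reads of 22 nt made up 2.44% of all reads in sperm, against 0.497% in testis and 52.5% in uterus. At 36 nt, fragments were 1.22% of the reads of sperm and 0.0558% of those of testis, and uterus had no read of that length.

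Where a fragment starts gives the same picture in terms of the tRNA fold. Starts in the T loop, bases 54 to 60, accounted for 12.4% of fragment reads in sperm, against 95.6% in testis and 98.5% in uterus. In sperm, 20.8% of fragment reads began 36 bases before the full end, 8.95% began 38 bases and 11.7% began 39 bases before it. In tRNAs without a long variable loop this is the 3′ side of the anticodon arm. Sperm also had a start at base 53, in the pair that closes the T loop, with 8.94% of its fragment reads. Fragments of 36 nt or more were 50.2% of the fragment reads of sperm and 0.750% of those of testis, and 0 of 15185 in uterus, a library with 215 reads of such lengths from any source.

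The tail was complete in nearly all fragments of the tissues and in fewer of those of sperm. The full CCA was present in 56.6% of fragment reads in sperm (56.1 to 57.2%), against 97.5% in testis (96.6 to 98.2%) while uterus had 96.4% (96.1 to 96.7%). In sperm, 19.5% of reads ended in CC and 23.9% in a single C. A fragment that starts at base 59 and lacks a tail base would be shorter than the 18 nt at which the tables begin, so the comparison is even only for earlier starts. Among reads that start at base 55, the full tail was present in 84.8% in sperm (83.2 to 86.3%), 97.7% in testis (96.8 to 98.5%) and, in uterus, 95.8% (95.4 to 96.1%).

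**Figure D2:**
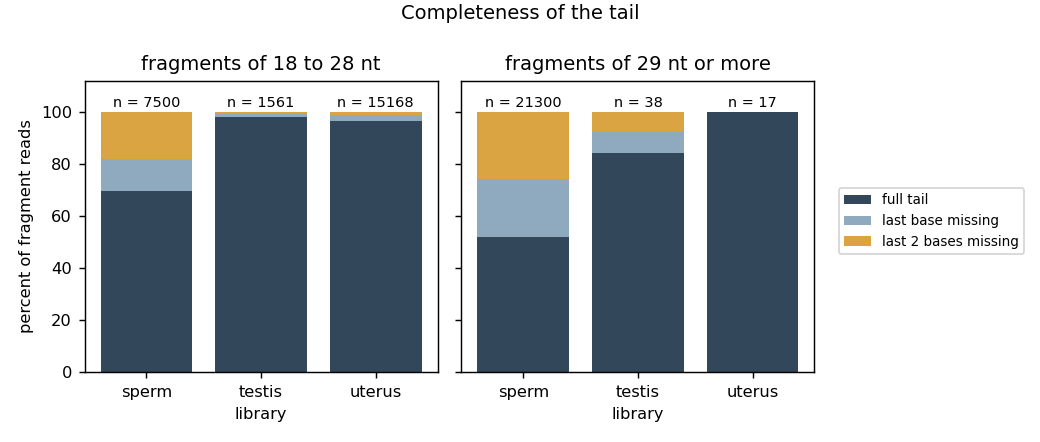
Share of fragment reads (percent, y axis) with the full tail, without its last base and without its last 2 bases, for sperm, testis and uterus, in fragments of 18 to 28 nt (left) and of 29 nt or more (right); n is the number of reads. Sperm has full tails in 69.7% of the shorter and 52.0% of the longer fragments, and in the shorter ones testis has 97.8% and uterus 96.4%.

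The difference was also present within a length range. Among fragments of 18 to 28 nt the full tail was present in 69.7% in sperm, against 97.8% in testis and 96.4% in uterus. Of 20 fragment starts with 20 or more reads in both sperm and uterus and an even chance to show a shorter tail, 17 had a lower share of full tails in sperm and 2 a higher one. Over these 20 the median share was 89.0% in sperm and 99.2% in uterus.

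The family with the least complete tails in sperm was tRNA-Asp (anticodon GTC), which carries aspartate. Of its 6177 reads in sperm 23.5% had the full tail, and 59.8% ended in a single C. The fragment that starts at base 38 had 380 reads with CCA, 437 with CC and 1182 with C, so the form printed above, without its last 2 bases, was the most frequent of the 3. The leading Trp fragment, which starts at base 41, had 1537 reads with CCA, 236 with CC and 69 with C. Without tRNA-Asp the share of full tails was 65.7% in sperm, against 97.7% in testis and 96.4% in uterus. Among families with 100 or more reads, the median share of full tails was 66.6% over 29 families in sperm, 99.2% over 4 in testis and 98.8% over 17 in uterus. In uterus the lowest was tRNA-Pro with 56.5%, whose base before the tail is itself a C; its 22 nt form had 309 reads, against 208 that lacked the last base and 130 that lacked the last 2.

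Different families led in the 3 libraries. In sperm the first were Asp-GTC with 21.4% of fragment reads (20.97 to 21.9%) and Trp-CCA with 21.2% (20.8 to 21.7%), whose intervals overlap, followed by Glu-TTC with 8.83%. In testis the first was Val-AAC/CAC with 27.8% (25.6 to 30.03%), before Gly-GCC/CCC with 13.8% and Ala with 11.9%, whose intervals overlap. In uterus the first was Ala with 21.6% (20.99 to 22.3%), before Val-AAC/CAC with 18.8% (18.2 to 19.5%) and Tyr-GTA with 10.2% (9.76 to 10.7%). Ala stands for 3 anticodons and Val-AAC/CAC for 2, while Tyr-GTA is a single one, so the rank holds for the pooled ends. Split evenly over its anticodons, Ala would be 7.21%, below Tyr-GTA.

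**Figure D3:**
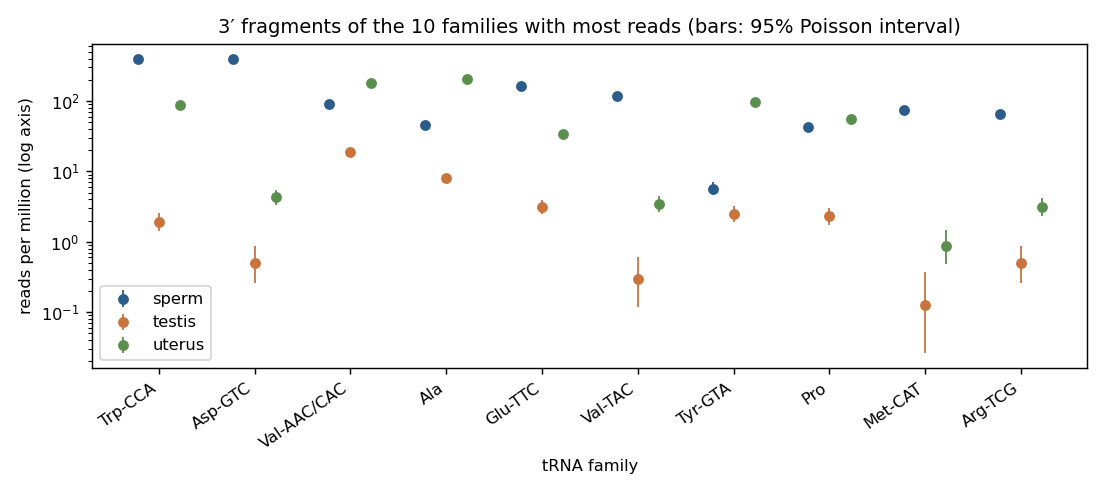
Level of 3′ fragments (reads per 1000000 reads of all lengths, log axis) of the 10 families with most reads over the 3 libraries, in sperm, testis and uterus, with 95% Poisson intervals. Trp, Asp, Glu-TTC, Val-TAC, Met and Arg-TCG stand highest in sperm, and Val-AAC/CAC, Ala, Tyr and Pro in uterus, while testis is lowest for each.

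The families differed in how far sperm stood from the tissues. tRNA-Asp had 394 RPM in sperm, against 0.505 RPM in testis and 4.28 RPM in uterus, which gives ratios of 780 to testis (446 to 1511) and 91.9 to uterus (72.4 to 119). tRNA-Trp had 390 RPM in sperm, against 1.93 RPM in testis and 88.1 RPM in uterus, with ratios of 201 to testis (151 to 275) and 4.42 to uterus (4.17 to 4.69). tRNA-Val with the anticodon TAC had 116 RPM in sperm, against 0.294 RPM in testis and 3.46 RPM in uterus. All 3 stood higher in sperm than in both tissues, and fragments of 29 nt or more made up 85.3% of the Asp reads, 93.1% of the Trp reads and 94.3% of the Val-TAC reads there.

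Glu-TTC had 162 RPM in sperm, against 3.11 RPM in testis and 34.1 RPM in uterus. The elongator tRNA-Met, which brings methionine into a growing chain, had 74.9 RPM in sperm, against 0.126 RPM in testis and 0.882 RPM in uterus, the testis value resting on 3 reads. The initiator tRNA-Met, with which translation starts, had 460 reads in sperm, against 19 in testis and 22 in uterus, and ratios of 36.7 to testis (23.2 to 61.5) and 21.2 to uterus (13.8 to 34.1). Arg-TCG had 66.03 RPM in sperm, against 0.505 RPM in testis and 3.15 RPM in uterus. All 4 stood higher in sperm than in both tissues.

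Relative to all reads, other families stood higher in uterus. tRNA-Ala had 45.5 RPM in sperm, against 7.99 RPM in testis and 207 RPM in uterus, so that its level in sperm was 0.22 times that in uterus (0.202 to 0.238). tRNA-Tyr had 5.67 RPM in sperm, against 2.48 RPM in testis and 97.9 RPM in uterus, 0.0579 times in sperm (0.0462 to 0.0717) and 0.0253 times in testis (0.0192 to 0.0328). Val-AAC/CAC had 89.8 RPM in sperm, against 18.7 RPM in testis and 180 RPM in uterus, and its ratio of sperm to uterus was 0.499 (0.468 to 0.532). tRNA-Pro had 42.3 RPM in sperm, against 2.31 RPM in testis and 54.7 RPM in uterus, and sperm stood at 0.774 of uterus (0.699 to 0.857). With fragments and reads of 18 to 28 nt alone, the direction turned for Val-AAC/CAC and Pro. Val-AAC/CAC then had 411 per 1000000 such reads in sperm, against 92.2 in testis and 181 in uterus, and Pro had 93.6 in sperm, against 11.4 in testis and 54.9 in uterus. It held for Ala, with 181 in sperm, against 39.1 in testis and 208 in uterus, and for Tyr, with 17.8 in sperm, against 12.3 in testis and 98.4 in uterus. On this scale 34 of 39 families stood higher in sperm than in uterus and 5 lower, which were Ala, Gly-TCC, Ser-AGA/TGA, Ser-CGA and Tyr-GTA. All fragments together stood 2.67 times as high in sperm as in uterus on this scale. The count set no minimum of reads, and Ile-TAT entered it with 14 reads in sperm and 8 in uterus.

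Families too were counted by their reads in the library left out, with a minimum of 100. Of 17 such families in uterus, 17 stood higher in sperm than in testis. Of 4 in testis, 1 stood higher in sperm than in uterus and 3 lower. Of 29 in sperm, 3 stood higher in testis than in uterus and 26 lower, relative to all reads. For all fragments together the ratios were 27.3 (sperm to testis), 1.92 (sperm to uterus) and 0.0703 (testis to uterus). No share over features outside the tRNAs was taken for families. The family that stood lowest in sperm relative to uterus was Ser-CGA, with 24 reads in sperm, against 16 in testis and 495 in uterus, a ratio of sperm to uterus of 0.0491. At the other end was Arg-CCT, with 728 reads in sperm, against 2 in testis and 0 in uterus. Of these sperm reads 97.1% were of 29 nt or more, lengths that uterus hardly holds. Testis came nearest to uterus in Gly-CCC, among families with 100 or more reads in the higher of both. Its ratio of testis to uterus was 0.404 (0.33 to 0.493), against 0.323 for Gly-GCC/CCC and 0.037 for Gly-TCC.

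The short forms were not spread over families in the way all fragments were. In uterus, the 18 nt class was led by Ala with 31.4% of it (29.5 to 33.4%), Trp with 22.9%, Leu-AAG/TAG with 11.2% and Val-AAC/CAC with 10.8%. Leu-AAG/TAG had 71.3% of its uterus reads at 18 nt and 24.3% at 22 nt, whereas Tyr had 1.74% at 18 nt and 94.98% at 22 nt. With reads changed at base 58 counted, Leu-AAG/TAG had 44.8% at 18 nt and 48.3% at 22 nt in uterus, and Tyr 0.233% at 18 nt and 96.96% at 22 nt. In sperm the 18 nt class was led by Trp with 23.7% (19.5 to 28.3%) and Ala with 20.1%, and the 22 nt class by Val-AAC/CAC with 25.5% (23.8 to 27.3%) and Gly-CCC with 13.3%. The same Val family led the 22 nt class in testis with 29.7% (27.3 to 32.3%) and in uterus with 22.3% (21.5 to 23.1%).

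The leading 22 nt Val fragment had 558 reads in sperm, against 398 in testis and 2430 in uterus. These are 35.6 RPM in sperm, against 16.7 RPM in testis and 153 RPM in uterus. The leading 18 nt fragment of tRNA-Ala had 28 reads in sperm, against 16 in testis and 510 in uterus, and that of tRNA-Trp 76 in sperm, against 3 in testis and 352 in uterus. The leading 36 nt Trp fragment had 1537 reads in sperm, against 0 in testis and 0 in uterus, which is at least 777 times the level that 3 counts would give in testis. The leading Asp fragment, of 37 nt, had 1182 reads in sperm and 0 in both tissues. No fold was taken against uterus, which has no read of 36 or 37 nt of any origin.

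Families are made of isodecoders, tRNAs with the same anticodon that differ elsewhere, and their ends were used unequally. tRNA-Trp has 3 accepted ends, which differ at bases 57 and 59 and are identical from base 60 on.
Trp-CCA, first end: tcgaatcacgtcggggtcaCCA
Trp-CCA, second end: tcaaatcacgtcggggtcaCCA
Trp-CCA, last end: tcaagtcacgtcggggtcaCCA
Among reads with a full tail that cover the end, the first made up 55.3% in sperm, against 30.3% in testis and 18.05% in uterus, and the second 23.99% in sperm, against 21.2% in testis and 54.5% in uterus. The testis shares rest on 33 reads. These shares count exact matches only. In sperm, base 58 was changed in 17.2% of reads of the first end, 41.6% of the second and 87.5% of the last. With such reads counted, whatever the tail, the last end led in sperm with 10879 reads, against 3739 of the first and 2615 of the second. It led in uterus too, with 2183 reads, against 411 and 1368. Among exact reads, the 2 Glu-TTC ends had near shares in all libraries, the first with 60.8% in sperm, against 66.7% in testis and 60.7% in uterus.

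Most reads that carry one of these ends did not meet the rule, because they differed from it at base 58. This base is an A in the T loop of the tRNAs followed here, since ends were accepted only with A there. In mammals it is commonly methylated to 1-methyladenosine, a base that reverse transcriptase often copies with errors or stops at. In reads that start at base 56 or before and match at every other base, base 58 was not A in 62.2% in sperm (61.9 to 62.5%), 78.5% in testis (77.5 to 79.4%) and, in uterus, 76.2% (75.7 to 76.6%). Such reads numbered 46445 in sperm, against 5476 in testis and 38815 in uterus. Methylation was not measured in these libraries, and its part in the changed reads was not tested. The genome holds A at this base in the 15 tRNA genes read here, but a gene was read only if it did. These genes thus cannot show that A is general.

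**Figure D4:**
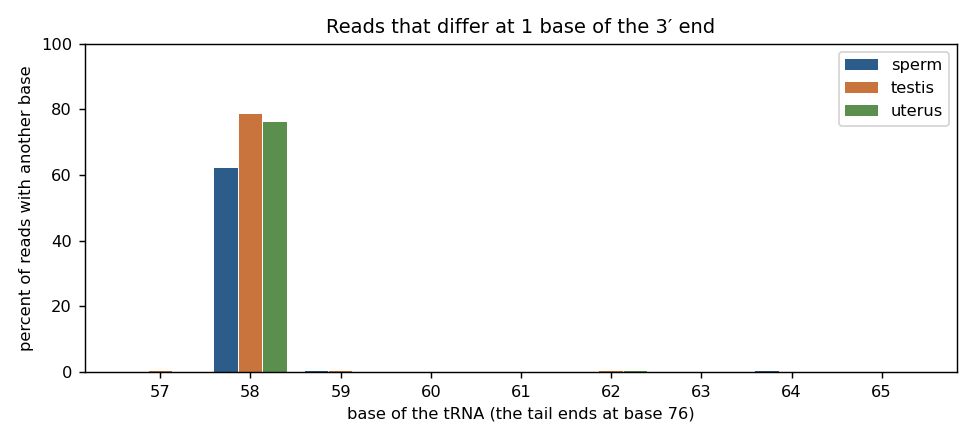
Share of reads (percent, y axis) that differ from an accepted end at a single base, for bases 57 to 65 (x axis) in sperm, testis and uterus. Base 58 stands at 62.2% in sperm, against 78.5% in testis and 76.2% in uterus, and no other base of the plot exceeds 0.353%.

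At the other bases from 57 to 65 the share of reads with another base was at most 0.244% in sperm, against 0.331% in testis and 0.353% in uterus. That range has a ceiling, since an end with another base at such a position was accepted as an end of its own once it held 3% of the reads of its key. Without this ceiling, on the 13 distinct ends of the genes read in the genome, base 58 differed in 60.5% of reads in sperm, against 78.3% in testis and 71.8% in uterus. The next base in that count was 64 in each library, with 8.82% in sperm, against 4.92% in testis and 7.47% in uterus, where other isodecoders are included.

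With these reads added, 3′ fragments made up 0.480% of the reads of sperm, 0.0297% of testis and 0.340% of uterus. The ratio of sperm was then 16.1 to testis and 1.41 to uterus. The leading families changed as well. They were Trp-CCA with 23.1% and Asp-GTC with 10.2% in sperm, Gly-CCC with 27.99% and Gly-GCC/CCC with 18.8% in testis, and Tyr-GTA with 21.5% and Val-AAC/CAC with 15.6% in uterus. Exact matches thus give a larger share to families with few changed reads, such as tRNA-Asp and Glu-TTC.

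The share of changed reads differed between families far beyond counting error. In sperm it ran from 1.60% in Ser-TGA and 2.75% in Glu-TTC (2.16 to 3.45%) to 89.1% in Arg-CCT (88.4 to 89.9%), with a median of 57.5% over 34 families with 100 or more reads. tRNA-Asp had 19.7% in sperm (18.8 to 20.6%). In uterus the share ran from 2.35% in Glu-TTC (1.26 to 3.98%) to 91.8% in Lys-TTT, with a median of 77.3% over 22 families. The other Glu family, with the anticodon CTC, had 81.0% in sperm (79.9 to 82.1%) and 50.7% in uterus (43.9 to 57.5%).

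Between libraries the share moved by a few percentage points in some families and by far more in others. Gly-CCC had 86.1% in sperm, against 91.9% in testis and 90.03% in uterus, and Gly-TCC had 88.4% in sperm, against 85.8% in testis and 86.0% in uterus. Val-AAC/CAC had 37.3% in sperm (35.3 to 39.4%), 48.7% in testis (45.3 to 52.2%) and, in uterus, 68.9% (67.9 to 69.9%), and its intervals do not overlap. Ala had 21.4% in sperm (18.6 to 24.5%), 66.3% in testis (61.7 to 70.7%) and, in uterus, 45.4% (43.8 to 47.0%). For Val the order held within its leading end alone, the one printed above, with 37.1% in sperm, 48.5% in testis and, in uterus, 68.8%. Within uterus the Ala ends differed among themselves, as 4 of them with 100 or more changed reads ran from 24.7% to 92.3%. In testis a single Ala end held 252 of the 448 Ala reads that cover base 58, and 221 of the 297 changed ones. That end had 30 exact full-tailed reads in testis and 4 in uterus. The order of the libraries for Ala thus mixes different ends.

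**Figure D5:**
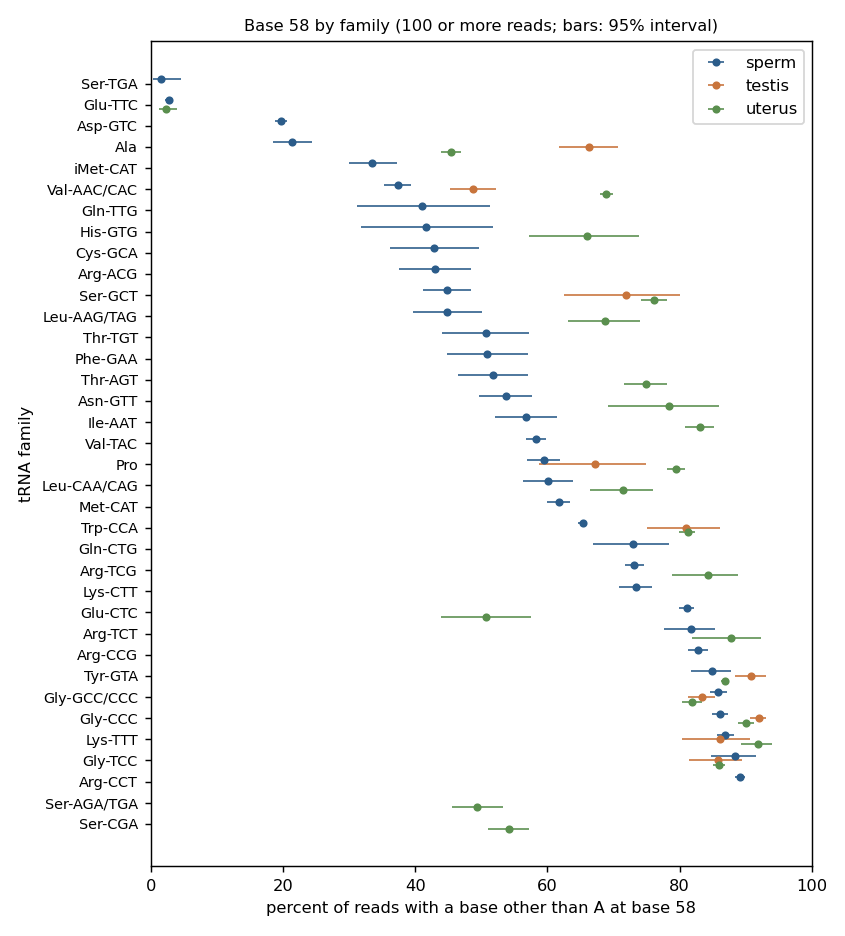
Share of reads with a base other than A at base 58 (percent, x axis) by tRNA family (y axis, ordered by sperm) in sperm, testis and uterus, with 95% Clopper-Pearson intervals, for families with 100 or more reads. Glu-TTC stands lowest but for Ser-TGA, at 2.75% in sperm and 2.35% in uterus, and the Gly families stand above 80% in every library.

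The base read in place of A differed with the neighbour at base 59. The changes are written with the base of the tRNA first, then the position, then the base of the read. Where base 59 is T, A58T made up 98.1% of the changed reads in sperm (97.9 to 98.4%), 98.2% in testis (97.7 to 98.5%) and, in uterus, 94.7% (94.41 to 95.0003%). Where base 59 is G, A58T made up 35.7% in sperm, against 38.7% in testis and 27.5% in uterus. A58G there made up 63.6% in sperm, against 59.5% in testis and 71.0% in uterus. These pooled shares mix ends that differ at base 57. In sperm, 9520 of 26828 such changed reads came from the Trp end with A at base 57, where A58T was 11.7%. Where base 59 is A, A58T made up 63.9% in sperm, against 74.2% in testis and 62.6% in uterus. Where it is C, which holds few changed reads, A58T made up 77 of 220 in sperm, 4 of 31 in testis and 91 of 145 in uterus. A58C was at most 6.45% of changed reads in any library and neighbour.

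Single ends showed the same in sperm and testis and less evenly in uterus. Of ends with base 59 T and 100 or more changed reads, A58T exceeded 90% in 9 of 10 in sperm, 5 of 5 in testis and 6 of 11 in uterus, where an Ala end had 43.3%. Of the other ends with as many changed reads, 0 of 26 in sperm, 0 of 3 in testis and 0 of 16 in uterus exceeded 90%. Among these other ends, A58T also differed with base 57. In sperm with G at base 59, it ran from 52.3% to 62.1% where base 57 is G. The Trp and Lys-TTT ends, with A there, had 11.7% and 22.4%. With A at base 59 in sperm, it ran from 69.3% to 80.2% where base 57 is G. Where base 57 is A, it ran from 44.1% to 53.4%. With T at base 59, the Asp ends of sperm, which differ at base 57, both had 98.4%. A pair of Ala ends in uterus, also with T at base 59 and different only at base 57, was unlike. The end with A at base 57 had 43.3% and that with G 73.8%. The leading changed fragments show A58T and A58G, with base 58 in capitals.
Tyr-GTA, A58T: tcgTttccggctcgaaggacca
Gly-CCC, A58T: tcgTttcccgggcggcgcacca
Trp-CCA, A58G: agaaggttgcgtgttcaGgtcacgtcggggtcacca
The Tyr read had 9505 reads in uterus, against 1164 of the same fragment with A. The Gly-CCC read was the first of the changed reads in testis with 1774 reads, against 159 with A, and it had 1605 in sperm, against 316 with A. The Trp read of 36 nt had 3410 reads in sperm, against 583 with A, and it outnumbered every exact fragment of that library.

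The share of changed reads can be split by length. In sperm it was 65.5% in fragments with 22 bases to the full end, 52.9% in those with 23 to 28 and 63.2% in those with 29 or more. In testis the share was 78.5% with 22 bases, 78.6% with 23 to 28 and 75.5% with 29 or more, and in uterus it was 76.1% with 22 bases, 71.6% with 23 to 28 and 76.7% with 29 or more. The 18 nt fragments begin at base 59 and do not hold base 58.

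The opposite end of the same tRNAs was set beside the 3′ fragments for genes that could be read whole. Reads that begin at base 1 to 3 of n-TVcac9 numbered 82458 in sperm, against 199 in testis and 214 in uterus. Here 3′ reads were matched to the gene itself, at any length, and so include a few long reads that the rule above did not accept. Those of n-TVcac9 that matched exactly numbered 1423 in sperm, against 439 in testis and 2822 in uterus. With reads changed at base 58 added to the 3′ side, the ratio of 5′ to 3′ reads was 35.8 in sperm, against 0.236 in testis and 0.0257 in uterus. For n-TGccc7 this ratio was 2.63 in sperm, against 0.00455 in testis and 0.00657 in uterus, and for the tRNA-Ser gene n-TSgct5 it was 9.85 in sperm, against 0.144 in testis and 0.0139 in uterus. Of 11 genes with different counts, 7 had more reads from the 5′ end than from the 3′ end in sperm and 4 fewer, counted in this way. The genes n-TStga1 and n-TStga2, with identical counts, entered each tally as a single gene. In testis 1 of 10 had more, and in uterus 0 of 12, a library with few reads of 29 nt or more. The 4 in sperm were n-TRtcg5, n-TTagt9, n-TItat14 and n-TRtct2. The tRNA-Ser genes n-TSaga9, n-TStga1 and n-TStga2 each had 25018 reads from the 5′ end in sperm, 19 in testis and 175 in uterus. Such shared reads still entered each tally more than once, for n-TSaga9 and for the pair taken as a single gene, so the genes counted are not independent. The testis tally left out n-TRtct4, which had 1 read from the 5′ end and 0 from the 3′ end there. The tRNA-Arg gene n-TRtcg5 had 59 reads from the 5′ end, 263 exact 3′ reads and 513 changed at base 58 in sperm. These reads can also come from other genes with the same ends.

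The list of keys does not cover every read that looks like a tRNA end. Of reads of 28 nt or more with T-loop bases in place and a full CCA, 11604 of 15720 in sperm carried a listed key, as did 39 of 50 in testis and 31 of 47 in uterus, and the rest were assigned to no family.

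Few fragments could have come from another of the annotated transcripts searched, which did not include mitochondrial tRNAs. Reads that match a GENCODE M21 transcript other than the tRNA hosts and the mitochondrial tRNAs made up 0.101% of fragment reads in sperm. They made up 0.938% in testis and 1.53% in uterus, and Mir5100 was among the genes matched. Of 63 distinct 18-base ends, 11 were found in antisense in at least 1 transcript.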

How the data were processed

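Adapters were joined to both ends of small RNA before reverse transcription, PCR and sequencing, per the labels' protocols. The authors deposited tables of distinct reads with their counts, which are whole numbers of reads; the submitters' processing notes name the build mm9, and neither header nor label describes how adapters were trimmed. Counts were used as deposited, with no normalization but division by the library total.

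Members and lists were chosen with earlier results of these data known. Keys for bases 66 to 73 were written from general knowledge, 58 in all. An end of 22 bases with T-loop bases TCAA or TCGA at 55 to 58 was accepted with 10 or more full-tailed reads and 3% of its key's reads in a library, and further bases with 3 reads and 5%. A base-59 start cannot show a partial tail. Gene positions are RefSeq GRCm38.p6 and were not converted to mm9. The named families are the 10 with most fragment reads over the libraries, with each one's leading fragment, the 3 leading fragments of each library and its leading 18 and 22 nt fragments; family ratios need 100 reads in the higher library. Other genes and ends were chosen after their values were seen. Ratios against 0 use 3 counts. Matching was tested on simulated data. Python 3.11.15, numpy 2.4.6, scipy 1.17.1, pandas 2.3.3 and matplotlib 3.10.9 were used.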

Additional observations from a re-analysis of the deposited data

Results flagged for a closer look

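Reads that match a tRNA end up to base 73, the last base before the tail, and carry no tail base lie outside the comparisons above. They numbered 2702 in sperm, against 8 in testis and 152 in uterus, each above the 3 reads that a count of 0 allows. A further 2443 reads in sperm, against 3 in testis and 113 in uterus ended at base 72.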

How the results depend on the processing

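No paired analysis was possible because each group has 1 library. Of 90 values recomputed under alternatives, 25 stayed within the counting interval of the reported value, 65 moved beyond it, and none of the 3 ratios changed direction. Counting reads changed at base 58, and the tails of fragments of 18 to 28 nt or without Asp-GTC, were alternatives chosen after seeing the data.

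With reads changed at base 58 counted, fragments made up 0.480% of sperm, against 0.0297% of testis and 0.340% of uterus, and the ratios were 16.1 (sperm to testis), 1.41 (sperm to uterus) and 0.0875 (testis to uterus). The 18 nt class was then 0.510% in sperm, against 0.792% in testis and 3.996% in uterus, the 22 nt class 89.4% in testis and 85.4% in uterus, and fragments over 22 nt 88.6% in sperm. Full tails were 57.7% in sperm, against 98.4% in testis and 95.8% in uterus. Asp-GTC was 10.2% in sperm, Val-AAC/CAC 12.04% in testis and Ala 9.40% in uterus, and another family led in each library. With any 1 substitution allowed, the shares were 0.494% of sperm, 0.0301% of testis and 0.345% of uterus.

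Counting distinct sequences gave shares of 0.144% in sperm and 0.0715% in uterus, an 18 nt class of 2.34% in sperm, against 9.29% in testis and 12.2% in uterus, a 22 nt class of 6.06% in sperm, against 31.1% in testis and 17.02% in uterus, and over 22 nt 80.6% in sperm, against 32.8% in testis and 30.6% in uterus. Full tails were then 46.01% in sperm, against 88.0% in testis and 80.9% in uterus, and the families 6.60% (Asp-GTC in sperm), 6.01% (Val-AAC/CAC in testis) and 14.9% (Ala in uterus).

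With full tails alone the shares were 0.104% in sperm and 0.0922% in uterus, the ratios 15.9 (sperm to testis) and 1.13 (sperm to uterus), the 18 nt class 2.09% in sperm, the 22 nt class 11.7% in sperm, against 86.2% in testis and 75.1% in uterus, and over 22 nt 84.4% in sperm. Within reads of 18 to 28 nt the shares were 0.256% in sperm and 0.0324% in testis and the ratios 7.90 (sperm to testis), 2.67 (sperm to uterus) and 0.338 (testis to uterus). Without single-read sequences the shares were 0.191% in sperm and 0.0974% in uterus, with a ratio of 1.96 (sperm to uterus).

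Classes of 18 and 19 nt held 1.70% in sperm, against 4.82% in testis and 19.3% in uterus, and of 21 to 23 nt 12.9% in sperm, against 89.1% in testis and 76.96% in uterus. Full tails in sperm were 69.7% in fragments of 18 to 28 nt and 65.7% without Asp-GTC. Split evenly over their anticodons, Val in testis would be 13.9% and Ala in uterus 7.21%. Leaving out matches to other transcripts kept the 3 shares within their intervals.

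Depth limits testis most, where 1599 reads carry the fragments and 38 of them are of 29 nt or more.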
